A study of Mus musculus with 32 samples.

Results

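The miRNAs described here are the arms that come from 2 pairs of neighbouring hairpins in the mouse genome, Mir192 with Mir194-2 on chromosome 19 and Mir215 with Mir194-1 on chromosome 1. The members were the rows of the mouse table named mmu-miR-192-5p, mmu-miR-192-3p, mmu-miR-194-5p, mmu-miR-194-2-3p, mmu-miR-215-5p and mmu-miR-215-3p, which are 6 of 1513 rows, and all 6 were found. The table holds 32 small RNA-seq libraries in 8 groups. The mice were female BALB/cSlc-nu/nu, 8 weeks old, and the tumor cells were ID8-T6, a luciferase-labelled subclone of the mouse ovarian carcinoma line ID8 that spreads readily in the peritoneal cavity. In the IP model the cells were given intraperitoneally and samples were taken on day 14, from tumor-bearing mice (tumor EVs and tumor tissue) and from mice given PBS (normal EVs and normal ovary), with 3 libraries in each group. In the orthotopic model the cells were placed in the left ovarian bursa, and sheets on the pelvic peritoneum and on the liver surface were compared on day 0 and day 4, with 5 libraries in each group. The sample labels name the second site diaphragm, and the name liver surface follows the study's text. EVs are extracellular vesicles, taken up from organ surfaces by a cellulose nanofiber (CNF) sheet, so that a sheet library sums vesicles of every cell type that sheds them there. The host mice lack mature T cells, and ID8-T6 is 1 subclone.

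miR-192, miR-194 and miR-215 are known as abundant miRNAs of liver, intestine and kidney epithelium, where hepatocyte nuclear factors drive their transcription. miR-192-5p and miR-215-5p carry the same seed and are treated as 1 family of regulators, whereas miR-194-5p has a seed of its own and is linked to the others only by position. In human cells the family is also known to be raised by p53. Each locus makes miR-194-5p, so its reads cannot be given to a locus, but the 3p arms of the 2 miR-194 hairpins differ and each marks its own locus. The row of mmu-miR-194-1-3p, the 3p arm of the chromosome 1 hairpin, lies outside the 6 members and was read only as this marker.

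The mature sequences are shown because the comparison of the 2 loci rests on how far a read can tell them apart. Capitals mark the seed (bases 2 to 8), and the letters are from RefSeq.
mmu-miR-192-5p: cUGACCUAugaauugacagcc
mmu-miR-215-5p: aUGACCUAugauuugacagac
mmu-miR-194-5p: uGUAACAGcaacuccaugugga
mmu-miR-194-2-3p: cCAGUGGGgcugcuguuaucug
mmu-miR-194-1-3p: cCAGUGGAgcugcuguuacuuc
mmu-miR-192-3p: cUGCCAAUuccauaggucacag
mmu-miR-215-3p: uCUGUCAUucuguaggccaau
mmu-miR-192-5p and mmu-miR-215-5p shared 18 of 21 bases and the whole seed UGACCUA. Counted from 1 at the 5′ end, with the base of mmu-miR-192-5p first, they differed by C1A, A12U and C20A. No other row among the 1274 of 1513 with a sequence in the reference table had this seed. The 3p arms of the miR-194 hairpins shared 18 of 22 bases and differed by G8A, U19C, C20U and G22C, with the base of mmu-miR-194-2-3p first. The authors allowed up to 2 mismatches in mapping, so 3 or 4 differences separate the arms of a pair, and a read with errors or trimmed ends at these positions could still be given to the other arm.

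The 4 hairpins are shown with their mature arms in capitals, since each mature arm above is cut from one of them. Coordinates are of GRCm38.p6, all on the plus strand, and the authors mapped to miRBase rather than to a genome.
Mir192: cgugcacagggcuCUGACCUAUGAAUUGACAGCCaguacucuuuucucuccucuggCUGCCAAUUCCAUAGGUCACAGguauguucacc
Mir194-2: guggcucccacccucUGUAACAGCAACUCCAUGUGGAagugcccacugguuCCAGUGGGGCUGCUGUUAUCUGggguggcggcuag
Mir215: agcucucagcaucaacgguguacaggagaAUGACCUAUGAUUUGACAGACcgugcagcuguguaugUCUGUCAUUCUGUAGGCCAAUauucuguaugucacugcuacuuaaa
Mir194-1: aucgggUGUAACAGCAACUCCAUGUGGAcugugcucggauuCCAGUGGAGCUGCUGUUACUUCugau
Mir192 lies at chr19:6264844-6264932 and Mir194-2 at chr19:6264643-6264728, with 115 bases between them, and the annotation used here gives no other gene over either. Mir215 lies at chr1:185313581-185313692 and Mir194-1 at chr1:185313319-185313385, with 195 bases between them. Both chromosome 1 hairpins lie within the antisense gene 2010103J01Rik, Mir215 in its exon and Mir194-1 in its intron, on the strand opposite to the protein-coding gene Iars2.

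The values are RPM (reads of a miRNA per 1e+06 reads assigned to miRNAs in that library). Whole reads could be recovered from them and numbered 132483 to 661582 in the day 4 libraries and 483705 to 2540577 in the others, so low values of day 4 rest on the fewest reads. The labelled tissues were read against miRNAs known for cell types. The ovarian arms miR-202-5p and miR-202-3p summed to 581, 628 and 1039 RPM in the normal ovary libraries. They summed to 0, 2.07 and 630 RPM in tumor tissue replicates 1, 2 and 3, so the third tumor library held them at the level of ovary and the other two lacked them. Pancreatic miR-216 and miR-217 arms reached 6128 RPM in tumor tissue replicate 2, 96.6 RPM in replicate 3 and 2.38 RPM in replicate 1, against at most 7.73 RPM in ovary. Nothing in the labels ties a library to a single mouse, so that p-values measure the spread between libraries, which may be technical.

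miR-192-5p and miR-194-5p were abundant in all 8 groups, and miR-215-5p joined them only in tumor tissue. By group mean miR-192-5p ranked between 19 and 93 among the 1513 rows. It was highest on the liver surface on day 0 (10869 ± 13563 RPM, SD, n = 5), followed by tumor tissue (6073 ± 4846 RPM, n = 3), the pelvis on day 0 (3795 ± 803 RPM, n = 5) and normal EVs (3321 ± 1383 RPM, n = 3). Lower were the liver surface on day 4 (1556 ± 875 RPM, n = 5), tumor EVs (1488 ± 81.5 RPM, n = 3) and the pelvis on day 4 (1449 ± 517 RPM, n = 5), with normal ovary the lowest (530 ± 67.7 RPM, n = 3). Of the neighbours in this order, the ranges of the pelvis on day 4 and of ovary did not overlap and those of the other 6 pairs did. miR-194-5p took nearly the same order, from 4600 ± 3839 RPM on the liver surface on day 0 (n = 5) to 170 to 249 RPM in the 3 ovary libraries. Here too the ranges overlapped in 6 of the 7 neighbouring pairs, and ovary stood apart. Levels in EVs and in tissue were not tested against each other, because the RNA was extracted with different kits.

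**Figure D1:**
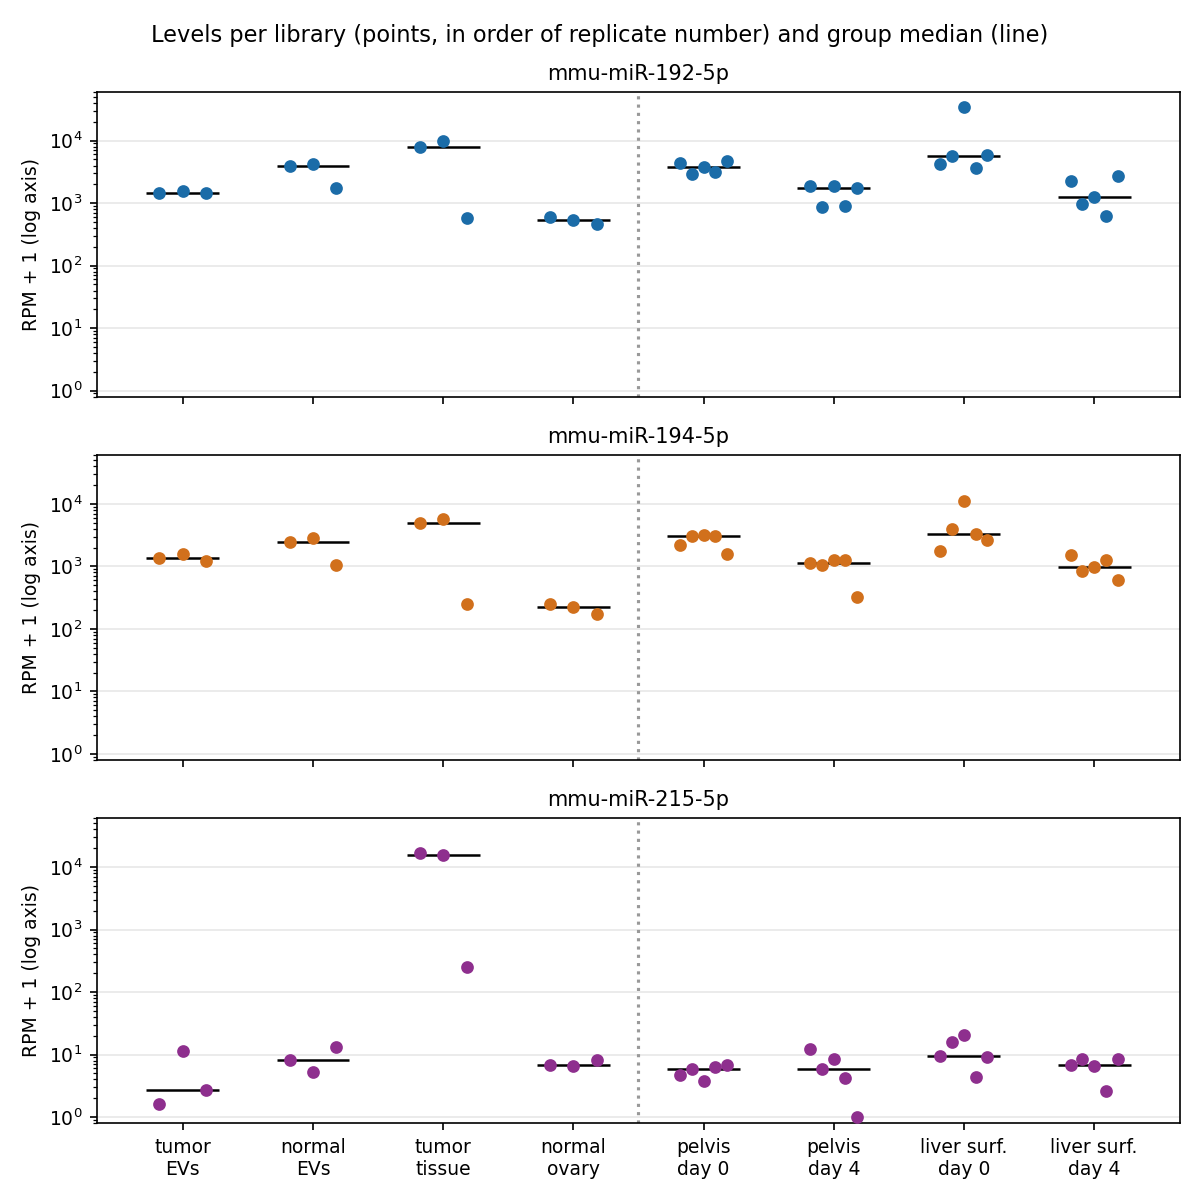
Level of mmu-miR-192-5p, mmu-miR-194-5p and mmu-miR-215-5p in each of the 32 libraries, as RPM + 1 on a log axis, by group; points stand in order of replicate number and lines give the group median. mmu-miR-215-5p stayed below 20 RPM in every library outside tumor tissue, where the libraries held 17050, 15753 and 256 RPM.

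The other arms of the hairpins were scarce. Over all libraries 179169 reads were given to miR-192-5p and 69 to miR-192-3p, which is 2597 reads of the 5p arm for each of the 3p arm, and miR-192-3p did not exceed 8.27 RPM. miR-215-5p had 64.8 reads for each read of miR-215-3p, 22344 against 345. miR-194-2-3p ranged from 0 to 58.3 RPM. miR-192-3p and miR-215-3p did not reach 10 RPM in enough libraries to be tested in any comparison, and between 2 and 4 of the 6 members were tested in each.

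Tumor tissue against normal ovary asked which members differ between the tumor and the organ of origin, and it was the comparison in which the chromosome 1 locus stood out. miR-215-5p measured 17050, 15753 and 256 RPM in tumor tissue replicates 1 to 3 and 5.80, 5.60 and 7.12 RPM in the ovary libraries. The lowest tumor library was thus far above the highest ovary library (means 11020 and 6.17 RPM), but the first and second were far above the third. The log2 fold change was 8.00 (SE 1.49, adjusted p = 0.00911, limma) on the log2(RPM + 10) scale, and miR-215-5p was called higher. A call here means an adjusted p under 0.05 over all miRNAs tested and a log2 fold change beyond 1 in size. It was 1 of the 3 members tested, and 13.2% of the 357 miRNAs tested were called higher. miR-215-5p reached the filter of 10 RPM in 3 libraries only through tumor tissue, the group in which it was high, so the count of calls is a description. The median log2 fold change was 3.12 over the 3 members and -0.05 over all miRNAs tested.

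The passenger arms of the chromosome 1 locus appeared in the same libraries. miR-215-3p measured 229, 308 and 3.12 RPM in the tumor libraries and had 0 reads in ovary, and miR-194-1-3p measured 204, 306 and 3.12 RPM with 0 reads in ovary. Against a floor of 3 reads over the 3369456 reads of the ovary group (0.890 RPM), miR-215-3p was at least 258-fold higher in tumor replicate 1 and at least 346-fold higher in replicate 2, and miR-194-1-3p was at least 230-fold and 344-fold higher. The third tumor library held only 2 reads of each. Neither arm reached 10 RPM in 3 libraries, so neither was tested. In the 29 libraries outside tumor tissue, which together held 29200952 reads, there was 1 read of miR-215-3p and 1 of miR-194-1-3p, both in tumor EVs.

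The arms of the chromosome 19 locus were also high in the first and second tumor libraries, by less. miR-192-5p measured 7874, 9762 and 584 RPM in tumor tissue and 590, 544 and 457 RPM in ovary. The third tumor library fell inside the ovary range, and the fold change, 2.74 on the log2 scale (SE 0.99, adjusted p = 0.0763, limma), did not pass the test. miR-194-5p measured 4904, 5629 and 251 RPM in tumor tissue and 249, 226 and 170 RPM in ovary, and its log2 fold change, 3.12 (SE 1.10, adjusted p = 0.0712, limma), did not pass either. miR-194-2-3p measured 19.02, 20.7 and 0 RPM in tumor tissue and 0, 3.74 and 0.791 RPM in ovary. Without tumor tissue replicate 3, the members called higher were miR-192-5p (log2 fold change 4.03, adjusted p = 0.000121, limma), miR-194-5p (4.56, adjusted p = 0.000116, limma), miR-215-5p and the 3p arms miR-194-2-3p and miR-215-3p. The last 3 reached the filter only through the tumor libraries in which they were high, so their number is not support. Without ovary replicate 2 the count was 0, and miR-215-5p kept its size (7.98, adjusted p = 0.0506, limma).

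**Figure D2:**
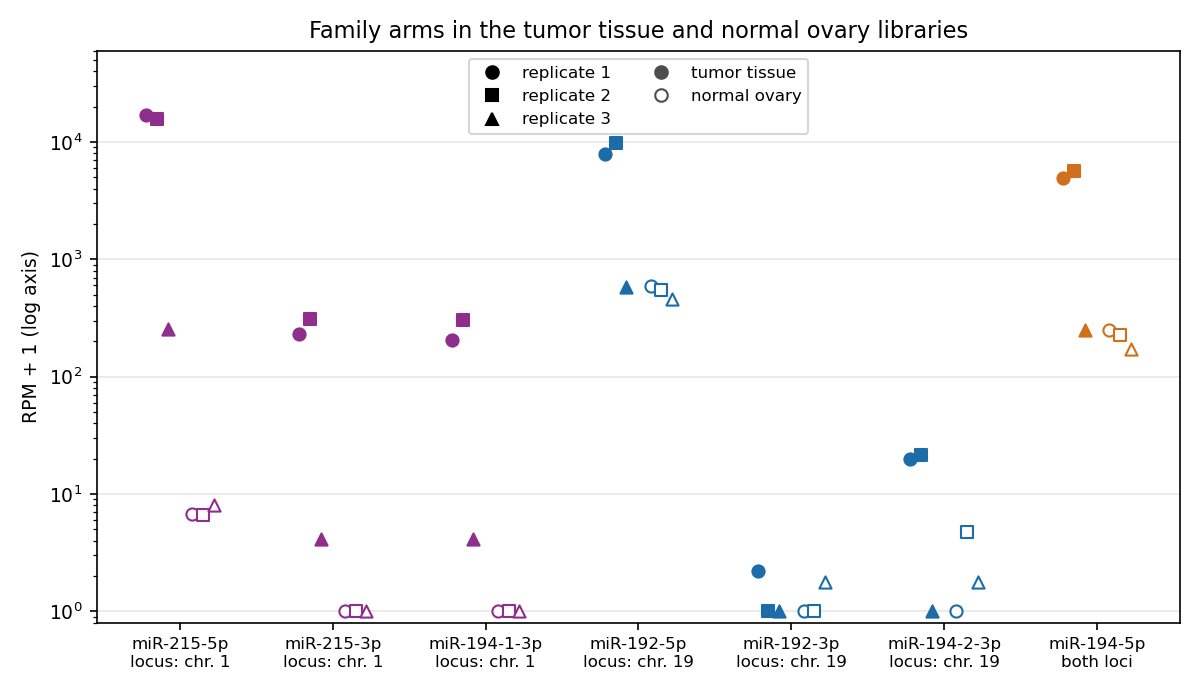
RPM + 1 (log axis) of the 6 members and of mmu-miR-194-1-3p in the 3 tumor tissue libraries (filled) and the 3 normal ovary libraries (open), with marker shapes for the replicate number and colors for the locus. In tumor replicates 1 and 2 all 3 arms of the chromosome 1 locus lie above 200 RPM, and mmu-miR-215-3p and mmu-miR-194-1-3p are at 0 in ovary.

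Within a library, arms of the 2 loci can be compared without any scaling. miR-215-5p made up 68.4% of the reads of miR-215-5p and miR-192-5p together in tumor tissue replicate 1 (14346 against 6625 reads, 95% interval 67.8% to 69.0%, Clopper-Pearson), 61.7% in replicate 2 (60.9% to 62.6%) and 30.4% in replicate 3 (26.6% to 34.5%). In the other 29 libraries it made up between 0% and 1.54%. Of the reads of the miR-194 3p arms, the chromosome 1 arm took 91.5% in replicate 1 (172 of 188, 86.5% to 95.1%) and 93.7% in replicate 2 (148 of 158, 88.7% to 96.9%), and both reads in replicate 3. Outside tumor tissue the chromosome 1 arm had 1 read and the chromosome 19 arm 413. The 2 pairs of arms gave unlike shares in tumor replicates 1 and 2, so neither share measures the output of a locus. The intervals cover counting error only, as PCR copies are not separate molecules. On a log2 scale the ratio of miR-215-5p to miR-192-5p averaged 0.21 ± 1.21 in tumor tissue and -5.06 ± 0.25 in ovary (SD, n = 3 each). The difference of 5.27 had an exact two-sided permutation p of 0.1 with no overlap, the smallest p that 3 against 3 libraries allow, and an adjusted p of 0.24 over 12 ratio tests. At most 9 reads of miR-215-5p were counted in an ovary library.

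Markers of other tissues were high in single tumor libraries, and the lists differed in how they went with the family. The ovarian arms were at 0 and 2.07 RPM in tumor replicates 1 and 2, which were high in the family. They were at 630 RPM in replicate 3, which was low in it. Tumor replicate 2, high in the family, also held the epithelial miR-375-3p at 12623 RPM, the pancreatic arms at 6128 RPM with 6 of 6 detected, and the hepatocyte arms (miR-122-5p, miR-122-3p, miR-122b-3p, miR-802-5p and miR-802-3p) at 3223 RPM with 4 of 5 detected. Tumor replicate 1, as high in the family, held the hepatocyte arms at 10.7 RPM and the pancreatic arms at 2.38 RPM, inside the ovary ranges of 7.91 to 57.9 RPM and 1.58 to 7.73 RPM. miR-375-3p stood at 477 RPM in that library, and at 127 to 212 RPM in ovary. Tumor replicate 3, low in the family, held the hepatocyte arms at 182 RPM and the pancreatic arms at 96.6 RPM, both above the ovary ranges. The summed epithelial list of 10 arms, which includes the miR-200 family, was 4526, 28654 and 2464 RPM in tumor tissue and 9388 to 20160 RPM in ovary. Of its 10 tested arms none was called higher and 2 fell, miR-203-3p and miR-205-5p. Of the other lists, 3 of 4 leukocyte arms were called higher (median log2 fold change 1.42), 2 of 4 smooth muscle arms were called lower (-0.98), 1 of 2 ovarian arms was called lower and none of 7 red blood cell arms was called. The leukocyte arms summed to 982 to 1854 RPM in tumor tissue and 496 to 752 RPM in ovary. The part of any of these tissues in the result was not tested, and a list for intestine or kidney was not among those read. In bulk RNA, more cells of a type and more RNA per cell cannot be told apart.

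The miR-34 arms, which are raised by p53 in mouse and human cells, were read as a comparison because the family is tied to p53 in human cells. The miR-34 arms summed to 1099 to 1576 RPM in tumor tissue and 1230 to 1359 RPM in ovary. In tumor tissue 1 of 5 tested miR-34 arms was called higher, and their median log2 fold change was -0.17. miR-34a-5p measured 103, 161 and 98.2 RPM there and 22.2, 13.1 and 33.2 RPM in ovary (log2 fold change 2.01, SE 0.33, adjusted p = 0.00561, limma). In the third tumor library miR-34a-5p and miR-215-5p lay above the ovary range, while miR-192-5p lay inside it. miR-194-5p lay barely above it, at 251 RPM against 249 RPM in the highest ovary library. Whether p53 has a part in these levels was not tested.

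In EVs of the same model miR-192-5p was lower in tumor samples by a call near its threshold, and miR-194-5p was not called. miR-192-5p measured 1447, 1582 and 1435 RPM in tumor EVs and 3949, 4278 and 1735 RPM in normal EVs. The tumor libraries were close to each other and all lay below the lowest normal library. The log2 fold change was -1.05 (SE 0.35, adjusted p = 0.0343, limma), which called miR-192-5p lower. miR-194-5p measured 1340, 1594 and 1229 RPM in tumor EVs and 2466, 2877 and 1051 RPM in normal EVs, with overlap, and the log2 fold change was -0.50 (SE 0.38, adjusted p = 0.292, limma). Thus 1 of the 2 members tested was called lower, while 36% of the 378 miRNAs tested were called lower and the median over all of them was -0.53. With median-of-ratios scaling, which moved the median of all miRNAs by 0.51, the log2 fold change was -0.46 (adjusted p = 0.160, limma), and edgeR on the recovered reads gave -0.67 (adjusted p = 0.0696). Leaving out any single library other than normal EV replicate 3 also ended the call.

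The other members in these EVs were near the limit of counting. miR-215-5p measured 0.631, 10.3 and 1.73 RPM in tumor EVs and 7.13, 4.17 and 12.1 RPM in normal EVs, 16 reads in all against 21. miR-194-2-3p measured 4.41, 4.74 and 7.79 RPM in tumor EVs and 14.3, 5.57 and 5.58 RPM in normal EVs. So the sheets from tumor-bearing mice held at most 10.3 RPM of miR-215-5p. The ratio of miR-194-5p to miR-192-5p was 0.926, 1.01 and 0.856 in tumor EVs and 0.624, 0.673 and 0.606 in normal EVs, with no overlap. Its log2 difference of 0.55 had an exact permutation p of 0.1, the smallest possible, and an adjusted p of 0.24.

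Other cell types moved with tumor EVs too. All 4 leukocyte arms were called lower (median log2 fold change -2.28), as were 8 of 10 epithelial arms (-2.28) and all 4 smooth muscle arms (-1.78), while 3 of 3 tested miR-34 arms were called higher (1.95). The leukocyte arms summed to 3830 to 4082 RPM in tumor EVs and 11964 to 36909 RPM in normal EVs. Normal EV replicate 3, the library in which miR-192-5p was lowest, held 134765 RPM of red blood cell arms against 3459 and 6049 RPM in the other two, and 1206 RPM of pancreatic arms. Without that library the log2 fold change of miR-192-5p was -1.46 (adjusted p = 7.45e-05, limma). The part of these cell types in the result was not tested.

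The tumor effect was compared between EVs and tissue directly, as the difference of the log2 fold changes. It was -3.78 for miR-192-5p (SE 1.16, adjusted p = 0.0209, limma), -3.62 for miR-194-5p (SE 1.29, adjusted p = 0.0409, limma) and -8.37 for miR-215-5p (SE 1.70, adjusted p = 0.00229, limma). All 3 were called lower in EVs than in tissue, of 4 members tested, while 27.5% of 422 miRNAs were called lower. miR-194-2-3p gave -1.07 (adjusted p = 0.116, limma). These calls depend on the spread among the tumor libraries. With replicate number 1 left out none of the members was called, with number 2 left out only miR-215-5p was, and with number 3 left out 5 were. miR-215-5p reached the filter here only through tumor tissue. miR-194-2-3p reached it through tumor tissue replicates 1 and 2 and normal EV replicate 1 (14.3 RPM). With number 3 left out the 3p arms passed only through tumor tissue. These counts are therefore a description as well. With median-of-ratios scaling miR-194-5p lost its call (-3.02, adjusted p = 0.0848, limma).

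In the orthotopic model the sites asked whether sheets on different organ surfaces differ. On day 0 miR-192-5p measured 4390, 2896, 3797, 3120 and 4774 RPM on the pelvis and 4177, 5631, 35069, 3583 and 5884 RPM on the liver surface, in order of replicate number. One liver surface library, replicate 3, stood far above the others, and the remaining 4 overlapped the pelvis. The log2 fold change was 0.92 (SE 0.53, adjusted p = 0.452, limma). miR-194-5p measured 2201, 3034, 3151, 3027 and 1575 RPM on the pelvis and 1778, 3963, 11317, 3256 and 2686 RPM on the liver surface (0.56, SE 0.43, adjusted p = 0.604, limma). miR-194-2-3p gave 0.40 (adjusted p = 0.572, limma). None of the 3 members tested was called, and 1.56% of 385 miRNAs were called in either direction. Without liver surface replicate 3 the log2 fold change of miR-192-5p was 0.34.

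The hepatocyte arms did differ between the sites. All 3 tested on day 0 were called higher on the liver surface, with miR-122-5p, the dominant miRNA of hepatocytes, at 1266, 26477, 174591, 13347 and 22755 RPM there and between 9.78 and 401 RPM on the pelvis (log2 fold change 7.92, adjusted p = 0.00286, limma). The library highest in miR-122-5p was also the one highest in miR-192-5p, miR-194-5p and miR-194-2-3p. On the pelvis the hepatocyte arms summed to 11.7 to 474 RPM while miR-192-5p stood at 2896 to 4774 RPM, so that a high level of miR-192-5p was also measured where hepatocyte arms were low. The part of hepatocyte RNA in the levels on the liver surface was not tested.

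**Figure D3:**
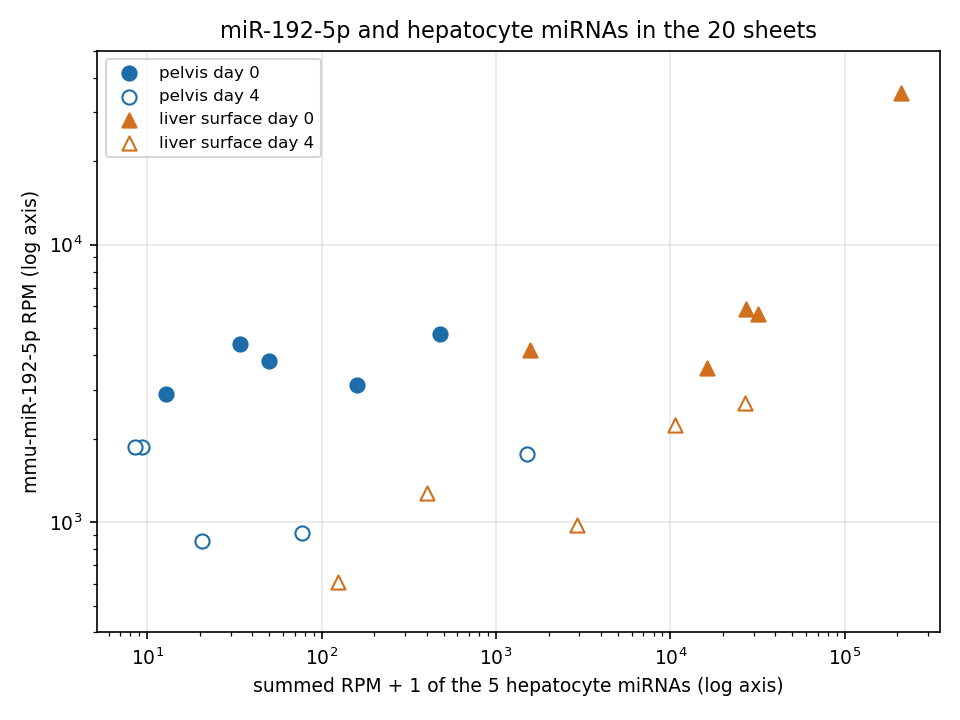
Level of mmu-miR-192-5p (RPM, log axis) against the summed level of the 5 hepatocyte arms (RPM + 1, log axis) in the 20 orthotopic sheets, with circles for the pelvis, triangles for the liver surface, filled for day 0 and open for day 4. The day 0 pelvis sheets hold 2896 to 4774 RPM of mmu-miR-192-5p at 11.7 to 474 RPM of hepatocyte arms, and liver surface replicate 3 of day 0 lies alone at 35069 RPM.

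On day 4 the sites were close. miR-192-5p measured 1865, 857, 1857, 912 and 1753 RPM on the pelvis and 2231, 975, 1272, 610 and 2693 RPM on the liver surface (log2 fold change -0.01, SE 0.43, adjusted p = 0.998, limma), and miR-194-5p gave 0.13 (SE 0.42, adjusted p = 0.955, limma). Neither of the 2 members tested was called, and limma called 0% of 424 miRNAs, with 40 at an unadjusted p under 0.05. edgeR also called 0 and DESeq2 called 9, none of them a member. Blocked by replicate number, since same-numbered sheets deviated together, limma called 7 miRNAs on day 4 and 21 on day 0 in place of 6, again without a member. The difference of the site effects between the days was -0.93 for miR-192-5p (SE 0.70, adjusted p = 0.890, limma) and -0.42 for miR-194-5p, and none of the 3 members tested was called, with 0.448% of 446 miRNAs called in either direction.

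The comparison of day 4 with day 0 asked how the vesicles change early after implantation, and here miR-192-5p and miR-194-5p fell at both sites. On the pelvis each of the 5 day 4 libraries held less miR-192-5p (857 to 1865 RPM) than the lowest day 0 library (2896 RPM). The log2 fold change was -1.44 (SE 0.30, adjusted p = 0.00360, limma). miR-194-5p fell from 1575 to 3151 RPM on day 0 to 1135, 1035, 1253, 1264 and 323 RPM on day 4, again with no overlap (-1.46, SE 0.38, adjusted p = 0.0127, limma). miR-194-2-3p measured 16.6, 12.7, 18.4, 14.5 and 8.92 RPM on day 0 and 0, 2.44, 0, 6.58 and 13.7 RPM on day 4, where 1 library lay inside the day 0 range. Its log2 fold change of -0.80 (adjusted p = 0.0401, limma) did not pass the threshold on size. It reached the filter of 10 RPM mostly through day 0 libraries, where it was high, so its fall is a description. So 2 of the 3 members tested were called lower on the pelvis, against 5.21% of 403 miRNAs. The median over the members was -1.44 and that over all miRNAs 0.18.

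At the liver surface miR-192-5p and miR-194-5p fell as well. miR-192-5p was lower in each day 4 library (610 to 2693 RPM) than in the lowest day 0 library (3583 RPM), and the log2 fold change was -2.37 (SE 0.59, adjusted p = 0.0114, limma). miR-194-5p measured 1494, 857, 971, 1277 and 608 RPM on day 4, below the lowest day 0 library at 1778 RPM (-1.89, SE 0.45, adjusted p = 0.00876, limma). miR-194-2-3p measured 12.3, 20.1, 58.3, 16.5 and 16.5 RPM on day 0 and 1.92, 4.53, 11.4, 9.41 and 5.55 RPM on day 4. Its log2 fold change (-0.97, adjusted p = 0.0337, limma) was also short of the threshold on size. The days did not overlap, but the arm passed the filter of 10 RPM through day 0, where it was high. Its fall is therefore a description here too. Again 2 of 3 members tested were called lower, against 2.95% of 407 miRNAs, and the medians were -1.89 over the members and 0.20 over all miRNAs. Liver surface replicate 3 of day 0 carries part of the size. Without that library the log2 fold change of miR-192-5p was -1.79 and that of miR-194-5p -1.49, and both were still called.

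The fall was seen in each replicate number. The ratio of day 0 to day 4 within a number was 2.04 to 3.42 for miR-192-5p on the pelvis and 1.87 to 27.6 on the liver surface, the last in number 3. For miR-194-5p it was 1.94 to 4.87 on the pelvis and 1.19 to 11.7 on the liver surface. The fall was also present in both sets of libraries whose sample descriptions carry NGS001 or NGS002, codes that the labels do not explain. In the NGS001 libraries (numbers 1, 3 and 4) the mean log2 difference of miR-192-5p was -1.34 on the pelvis and -2.74 on the liver surface. In the NGS002 libraries (numbers 2 and 5) it was -1.59 and -1.82. For miR-194-5p these values were -1.18 and -1.71 with NGS001 and -1.90 and -2.16 with NGS002. Median-of-ratios scaling, which moved the median of all miRNAs by -0.29 in both comparisons, kept both members called at both sites.

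**Figure D4:**
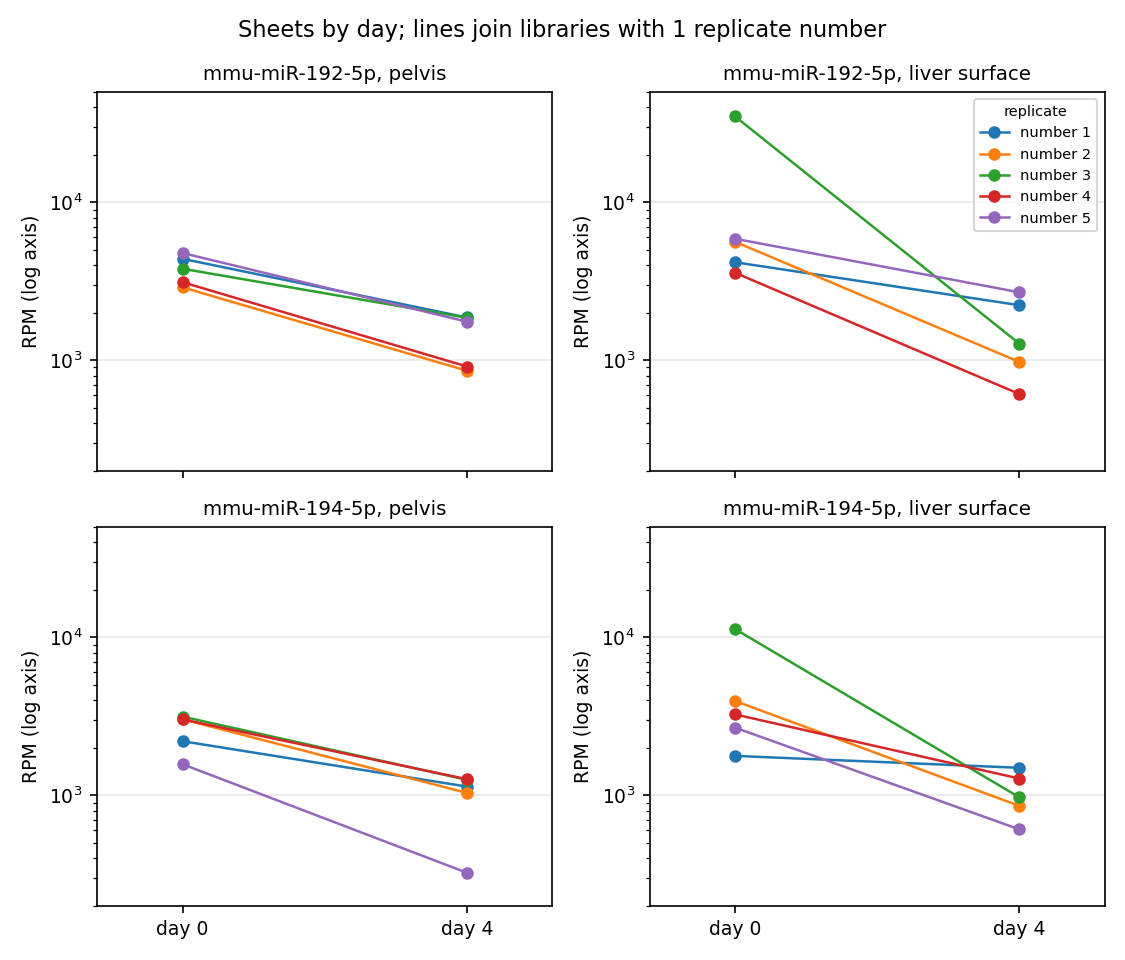
RPM (log axis) of mmu-miR-192-5p (upper row) and mmu-miR-194-5p (lower row) on day 0 and day 4 on the pelvis (left) and the liver surface (right); each line joins the libraries of 1 replicate number. All 20 lines run down, the steepest being that of number 3 on the liver surface, from 35069 to 1272 RPM of mmu-miR-192-5p.

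Other lists moved over the same days. On the pelvis all 7 red blood cell arms were called higher on day 4 (median log2 fold change 3.43), and they summed to 792 to 56565 RPM on day 0 and 28805 to 114003 RPM on day 4. No hepatocyte arm was called there, and 1 of 5 was tested. At the liver surface none of the 7 red blood cell arms was called, and the 4 hepatocyte arms tested had a median log2 fold change of -2.55 with 1 called lower, miR-802-5p. The epithelial arms had 2 of 9 called lower on the pelvis, miR-200b-3p and miR-375-3p, and 1 of 9 on the liver surface, miR-203-3p. None of the 4 leukocyte arms and none of the 4 smooth muscle arms was called at either site. The miR-34 arms went up, with 1 of 2 tested called on the pelvis and 4 of 4 on the liver surface. miR-34c-5p rose from 3.94 to 28.7 RPM on day 0 to 160 to 446 RPM on day 4 on the liver surface (log2 fold change 3.71, adjusted p = 7.97e-05, limma). The miR-34 arms that were called rose over the days in which miR-192-5p and miR-194-5p fell. Neither the part of p53 nor that of these cell types in the fall was tested.

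**Figure D5:**
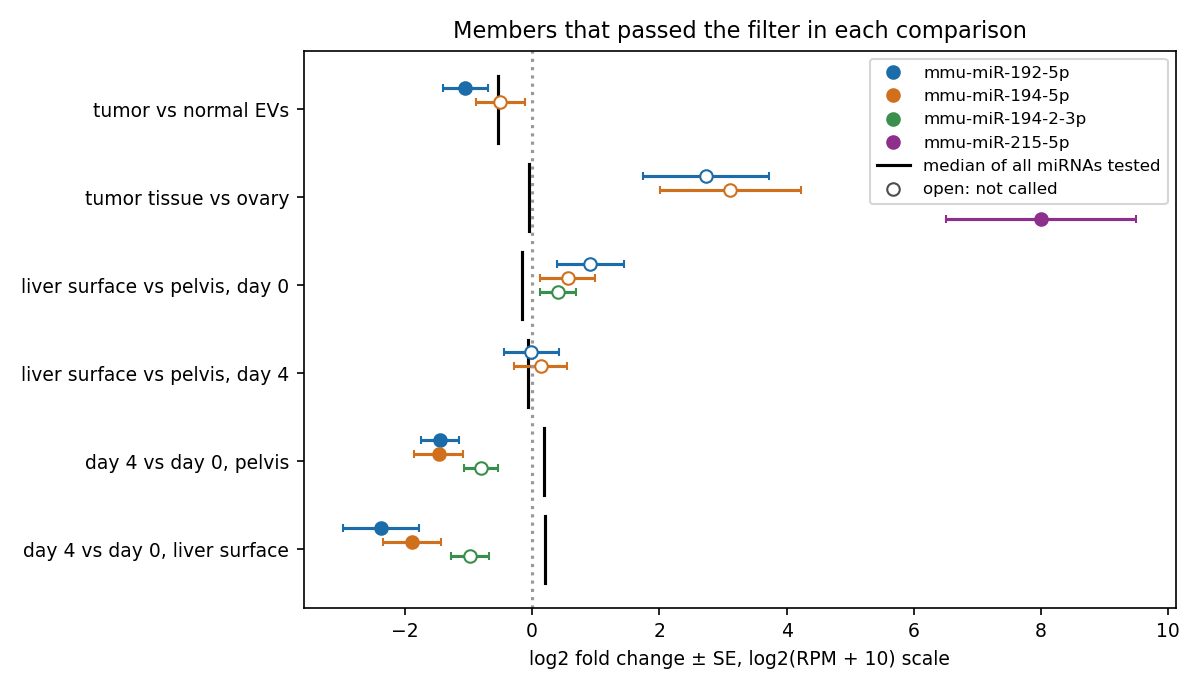
Log2 fold change ± SE on the log2(RPM + 10) scale of the members that passed the filter, for 6 comparisons; filled points were called, open points were not, and the black bars give the median of all miRNAs tested. mmu-miR-215-5p in tumor tissue (8.00) and the falls of mmu-miR-192-5p and mmu-miR-194-5p between day 0 and day 4 (-1.44 to -2.37) lie farthest from those medians among the called points.

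In the sheets miR-215-5p was near the limit of counting, so whether it followed its seed partner could not be measured. In same-numbered sheets it was lower on day 4 for 3 of 5 numbers on the pelvis and 5 of 5 on the liver surface. It measured 3.77, 4.89, 2.73, 5.43 and 5.94 RPM on the pelvis on day 0 and 11.1, 4.87, 7.55, 3.29 and 0 RPM on day 4. At the liver surface it measured 8.55, 14.7, 19.7, 3.31 and 8.04 RPM on day 0 and 5.77, 7.56, 5.68, 1.57 and 7.40 RPM on day 4. The day 4 values rest on 8 reads on the pelvis and 14 on the liver surface, and the arm did not pass the filter. The log2 ratio of miR-215-5p to miR-192-5p rose by 1.48 on the pelvis and 1.99 on the liver surface, without overlap in either (two-sided exact permutation test, p = 0.00794, which is the lowest it can give, adjusted p = 0.0476 in both). As 10 RPM was added to both terms and miR-215-5p was mostly below that, these ratios follow miR-192-5p by construction. With 1 RPM added the rises were 1.28 (adjusted p = 0.267, exact permutation) and 1.61 (adjusted p = 0.0952, exact permutation). With a library left out the adjusted p ranged from 0.0476 to 0.0952 at both sites (exact permutation). With pairs by replicate number the adjusted p was 0.375 for the pelvis by an exact test, which 5 pairs do not allow to fall under 0.05.

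The ratio of miR-194-5p to miR-192-5p did not differ by site or day beyond its spread, but it varied with the replicate number. It was 0.501, 1.05, 0.830, 0.970 and 0.330 on the pelvis on day 0 for numbers 1 to 5, and 0.609, 1.21, 0.675, 1.39 and 0.184 on day 4. On the liver surface it was 0.426, 0.704, 0.323, 0.909 and 0.456 on day 0 and 0.670, 0.879, 0.763, 2.09 and 0.226 on day 4. Number 5 was the lowest in 3 of the 4 groups and number 4 the highest in 3 of the 4. In tumor tissue and ovary the ratio was 0.429 to 0.623 and 0.373 to 0.422, with no overlap (log2 difference 0.38, exact permutation p = 0.1, adjusted p = 0.24). The ratio of miR-194-5p to the sum of miR-192-5p and miR-215-5p went the other way. It was 0.197 to 0.299 in tumor tissue and 0.367 to 0.418 in ovary, and was not tested.

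The share of the 6 members in all miRNA reads sums up these patterns. It was 3.01%, 3.15% and 0.109% in tumor tissue and 0.0636% to 0.0845% in ovary. In the sheets it was 0.267% to 0.319% in tumor EVs, 0.280% to 0.717% in normal EVs, 0.595% to 0.697% on the pelvis on day 0 and 0.190% to 0.312% on day 4. On the liver surface it was 0.598% to 4.65% on day 0, with the highest in replicate 3, and 0.185% to 0.373% on day 4.

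Likeness over libraries was described by Spearman's rho over log2(RPM + 10), with no test, as libraries share depth, sites and numbers. Over the 20 orthotopic sheets and 210 miRNAs with a mean of at least 100 RPM, miR-192-5p was most like miR-99a-5p (0.77), miR-30c-5p (0.74), let-7g-5p (0.74), miR-26a-5p (0.71) and miR-1a-3p (0.71), and its rho with miR-194-5p was 0.74. miR-194-5p was most like miR-30c-5p (0.88), miR-101a-3p (0.78), let-7g-5p (0.68), let-7a-5p (0.65) and miR-125a-5p (0.64). miR-215-5p, near the limit of counting, was most like the smooth muscle and endothelial arms miR-145a-5p (0.66), miR-126a-3p (0.64), miR-145a-3p (0.62) and miR-143-3p (0.54), with miR-122b-3p next (0.43). Over the 12 IP libraries miR-192-5p and miR-194-5p had a rho of 0.95 with each other, and miR-7b-5p (0.78 and 0.87) and miR-362-3p (0.76 and 0.82) were among the nearest other arms of both. There miR-215-5p was most like miR-375-3p and miR-574-3p (0.73 each), and its rho with miR-192-5p was 0.41.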

How the data were processed

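Small RNA was sequenced with NEBNext libraries from 32 mouse samples, with a Norgen kit for sheets and miRNeasy for tissue. Per the study's methods the authors used CLC Genomics Workbench 9.5.3 to align reads against miRBase 22, tolerating 2 mismatches, then deposited RPM and tested with DESeq2 1.30.0 in R 4.0.3. How reads that match several arms were assigned is not given in the sources used here.

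Dividing the RPM the authors deposited by each library's smallest value above 0 gave whole reads (100% of values, tolerance 0.001). Since the unit is RPM, limma 3.58.1 (trend, two-sided, R 4.3.3) was run on log2(RPM + 10), keeping miRNAs that reached 10 RPM in as many libraries as the smaller group holds, with Benjamini-Hochberg adjustment over all miRNAs tested. Calls needed an adjusted p below 0.05 with a log2 fold change larger than 1 in either direction. A fold change on this scale understates that of low miRNAs. Ratios were tested by exact permutation with adjustment over 12 tests. On the recovered reads edgeR 4.0.16 called 200 and DESeq2 1.42.0 called 207 miRNAs in tumor EVs (limma 197), and 92 and 105 in tumor tissue (limma 84). Other alternatives were a pseudocount of 1 RPM, no filter, median-of-ratios scaling, a block for replicate number and each library left out. The steps were tested on simulated data.

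Members and lists were chosen with earlier results of these data known. Named are all members, of each list the arms highest in mean and those called where a member is called, and the 5 arms most like miR-192-5p, miR-194-5p and miR-215-5p, of which the text prints a part. Replicate numbers were taken as pairs where all correlations of same-numbered residuals exceeded 0.1, which held for EVs of the IP model (0.169 to 0.271), the sites on day 0 (0.397 to 0.704) and day 4 (0.119 to 0.737) and the days on the pelvis (0.189 to 0.631).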

Additional observations from a re-analysis of the deposited data

Results flagged for a closer look

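Single libraries that lay far from the others of their group, relative to the group's range, were found in 6 of 28 groups of 5 values examined over the members and their ratios. Chance flags about 1 in 20 groups where values are normally distributed, which values of single reads are not. On the liver surface on day 0, replicate 3 was high in miR-192-5p (35069 RPM) and miR-194-2-3p (58.3 RPM) and low in the log2 ratio of miR-215-5p to miR-192-5p (-10.2). On the liver surface on day 4, replicate 4 was low in miR-215-5p (1.57 RPM, 1 read). On the pelvis on day 4, replicate 5 was low in miR-194-5p (323 RPM), and replicate 1 was the only library of its group with miR-192-3p (2.78 RPM, 1 read).

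The tumor effect differed between EVs and tissue by the test of the difference itself for miR-192-5p (log2 difference -3.78), miR-194-5p (-3.62) and miR-215-5p (-8.37). The members called went from 0 to 5 with a replicate number left out. miR-194-5p lost its call without the filter and with median-of-ratios scaling. miR-215-5p passed the filter only through tumor tissue, where it was high, so its call is a description.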

How the results depend on the processing

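No call turned its direction under any alternative. In tumor EVs the 1 member called, miR-192-5p, became 0 without the filter (log2 fold change -1.05, adjusted p = 0.0503, limma), with median-of-ratios scaling, with edgeR and with DESeq2 (-0.57, adjusted p = 0.131), and 0 to 1 with a library left out. In tumor tissue the 1 member called became 3 with edgeR, with DESeq2 and with the replicate block (limma adjusted p = 0.0328 for miR-192-5p and 0.0272 for miR-194-5p), where the numbers were not taken as pairs (correlations -0.056 to 0.132), and 0 to 5 with a library left out. For the tumor effect in EVs against tissue, the 3 members called became 0 to 5 with a replicate number left out. Of these, miR-194-5p was lost without the filter (-3.62, adjusted p = 0.0715, limma) and with median-of-ratios scaling. Between the days 2 members were called at each site, and 2 to 3 with a library left out, except that edgeR and DESeq2 added miR-194-2-3p on the pelvis, that pseudocount 1, median-of-ratios scaling and edgeR added it on the liver surface, and that DESeq2 gave no adjusted p for miR-192-5p there. As miR-194-2-3p passed the filter mostly through day 0, where it was high, its added calls are a description. The rise in the log2 ratio of miR-215-5p to miR-192-5p lost its call with pseudocount 1 on the pelvis (1.28) and the liver surface (1.61). With the replicate block (1.48 and 1.99) the adjusted p was 0.375 in both by an exact test on pairs. As 5 pairs do not allow a p under 0.05, that test could not keep the call. With a library left out the rise was 1.31 to 1.71 and 1.55 to 2.19, and the adjusted p ranged from 0.0476 to 0.0952 in both (exact permutation). The replicate block changed no other call of a member. The causes were not tested.

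Counts over all miRNAs moved by over 1.5 times for the sites on day 0 (6, against 16 with DESeq2 and 21 with the block), the sites on day 4 (0, against 9 and 7), the change of the site effect (2, against 1 without the filter, with median-of-ratios scaling or with edgeR), and with a library left out for tumor tissue (84, down to 34) and for EVs against tissue (174, down to 70). Median-of-ratios scaling moved the calls higher and lower from 61 and 136 to 83 and 94 in tumor EVs, from 76 and 21 to 58 and 51 between days on the pelvis, from 63 and 12 to 44 and 37 on the liver surface, from 58 and 116 to 81 and 83 for EVs against tissue and from 3 and 3 to 2 and 4 for the sites on day 0. In the day 4 libraries miR-192-3p, miR-215-5p and miR-215-3p rest on so few reads that a fall could not be measured.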
